A study of Mus musculus with 18 samples.

Results

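Genes of muscle calcium handling were followed in cultured mouse satellite cells with and without an inducible deletion of the homeobox gene Hoxa10. They were the rows of the count table whose mouse Ensembl identifier carries the symbol Pvalb, Atp2a1, Atp2a2, Sln, Casq1, Casq2, Ryr1, Cacna1s, Jph1 or Trdn, and all 10 were found among the 50689 features. Satellite cells are the stem cells of skeletal muscle, and these were taken from tibialis anterior muscle of C57BL6 mice and kept in growth medium on matrigel. In the scKO group (9 libraries) cells were Pax7-CreERT2/+;Hoxa10f/f and were given 4-hydroxytamoxifen at 1 µM for 2 days, which activates a Cre recombinase expressed from the Pax7 locus. The control group (9 libraries) was Hoxa10f/f, so it carried the same floxed alleles but neither Cre nor, as far as the labels go, the drug. Effects of genotype, Cre and drug therefore cannot be told apart. The labels do not say whether the libraries of a group came from separate animals or cultures, so the p-values below measure the spread between these libraries.

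In a muscle fibre, an action potential is sensed in the T-tubule membrane by a voltage-gated channel, which opens the ryanodine receptor of the sarcoplasmic reticulum and lets calcium out to start contraction. Junctional proteins hold both membranes together, calsequestrin stores calcium inside the reticulum, SERCA pumps return it there, and parvalbumin binds it in the cytosol of fast fibres. Satellite cells in culture switch many of these genes on when they leave the cell cycle and form myotubes.

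The table held counts of unique molecular identifiers (UMIs), the random tags that mark single molecules, with totals of 420197 to 5986128 per library. Libraries scKO 6, 7 and 9 and control 1 and 2 had over 2000000 counts and are called deep; the other 13 (6 scKO, 7 control) are called shallow. Hoxa10 had 48 to 75 counts in deep scKO libraries, against 209 and 328 in deep controls, and 1 to 3 counts in shallow scKO libraries, against 11 to 36 in shallow controls. The Hoxa10 counts of the 2 groups did not overlap in either depth class. Within the shallow class, the first principal component, which held 39.5% of the variance, set scKO 1 and control 7, 8 and 9 away from the other 9 libraries. The highest count in the table was 4096, the same as the number of different UMIs of 6 bases. The UMI length is inferred from this value; if it holds, a count cannot rise past the limit whatever the number of molecules. The satellite cell genes Pax7, Myf5 and Myod1 and the muscle gene Des had counts in every library. In most libraries 1 of the 10 listed satellite cell and myoblast markers had no counts. All 10 were counted only in control 6, scKO 6 and scKO 7. The leukocyte gene Ptprc had at most 3 counts in any library. Counts of single genes among the 6 listed leukocyte markers reached 67, in scKO 6. Levels are given as CPM, counts scaled to TMM-adjusted totals, and since the UMI limit acts on abundant genes, above all in deep libraries, levels are not compared between the depth classes.

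Promoter windows are shown for 3 members that were called higher under every alternative in the deep libraries, Casq1, Cacna1s and Pvalb, and for Ryr1, which was called under fewer. RefSeq windows on GRCm38.p6 were found for 6 of the 10 members, namely Pvalb, Atp2a1, Casq1, Casq2, Ryr1 and Cacna1s, but not for Atp2a2, Sln, Jph1 and Trdn. Each sequence below is the 250 bases before a start site, read 5′ to 3′ on the gene's strand, and capitals mark CANNTG, the E-box motif that MyoD family factors bind. CANNTG reads the same on both strands, and CAGCTG is one of its forms.
Casq1, chr1:172219896-172220145, minus strand: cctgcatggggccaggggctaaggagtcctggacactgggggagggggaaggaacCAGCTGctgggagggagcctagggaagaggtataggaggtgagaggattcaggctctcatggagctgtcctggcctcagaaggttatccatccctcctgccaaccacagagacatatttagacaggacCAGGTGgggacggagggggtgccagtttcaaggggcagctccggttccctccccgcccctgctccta
Cacna1s, chr1:136052561-136052810, plus strand: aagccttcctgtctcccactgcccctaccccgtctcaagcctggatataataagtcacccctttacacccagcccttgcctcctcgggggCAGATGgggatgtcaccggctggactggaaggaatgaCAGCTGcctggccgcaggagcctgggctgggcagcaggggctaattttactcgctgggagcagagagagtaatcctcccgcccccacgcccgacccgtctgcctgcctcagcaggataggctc
Pvalb, chr15:78206401-78206650, minus strand: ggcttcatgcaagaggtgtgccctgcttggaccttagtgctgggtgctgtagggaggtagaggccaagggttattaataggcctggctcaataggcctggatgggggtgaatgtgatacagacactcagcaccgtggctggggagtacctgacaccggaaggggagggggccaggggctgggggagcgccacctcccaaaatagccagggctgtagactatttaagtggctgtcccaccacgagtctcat
Ryr1, chr7:29125152-29125401, minus strand: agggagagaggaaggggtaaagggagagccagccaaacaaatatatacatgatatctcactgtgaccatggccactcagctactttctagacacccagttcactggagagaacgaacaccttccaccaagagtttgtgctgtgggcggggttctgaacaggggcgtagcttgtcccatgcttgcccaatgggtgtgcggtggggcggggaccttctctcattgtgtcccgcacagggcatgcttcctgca
The Casq1 and Cacna1s windows each held 2 CANNTG matches, of which 1 was CAGCTG, and this Pvalb window and the Ryr1 window held none. A second Pvalb window, at chr15:78204238-78204487 on the minus strand, held 1 CANNTG match. The Atp2a1 window held 1 match, which was CAGCTG, and the Casq2 window held 2, neither of which was CAGCTG. Of all 32851 windows of 250 bases, 66.2% held CANNTG and 13.0% held CAGCTG. A match is a stretch of letters and not a measured binding site.

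All 10 genes were read in the cultures, over a wide range of levels. Per kilobase of exon, Atp2a1, the SERCA pump of fast fibres, stood highest in shallow controls at 608 ± 106 CPM per kilobase, and Casq2, the calsequestrin of cardiac and slow muscle, followed at 488 ± 179 (SD, n = 7). These neighbours did not differ beyond their spread. Atp2a2, a SERCA pump found in cardiac and slow muscle but not only there, had 89.7 ± 14.5 CPM per kilobase and Casq1, the calsequestrin of fast fibres, 71.6 ± 28.6, again within the spread of each other. Cacna1s, the voltage sensor of the T-tubule, had 16.8 ± 6.66 CPM per kilobase, Trdn, which anchors calsequestrin to the ryanodine receptor, 16.1 ± 3.16, and Ryr1, the release channel itself, 10.3 ± 2.97. Jph1, which ties the reticulum to the T-tubule, followed at 9.06 ± 1.60 CPM per kilobase. Sln, the small peptide sarcolipin that inhibits SERCA, had 3.98 ± 2.69 CPM per kilobase and Pvalb, the cytosolic buffer parvalbumin, 3.93 ± 3.70. Pvalb and Sln had at most 12 and 13 counts in any shallow library, and their order cannot be read there. Which stretch of a transcript was read is not given in the sources used here; without division by length, Ryr1 (226 ± 64.8 CPM) stood above Trdn (151 ± 29.6 CPM), Casq1 (140 ± 55.9 CPM) and Cacna1s (110 ± 43.6 CPM) in shallow controls.

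In the deep libraries, calcium handling genes were higher in scKO cells: of the 10 members, 7 rose and none fell. The risers were the buffer Pvalb, the SERCA inhibitor Sln, the luminal store Casq1, the junction genes Trdn and Jph1, the voltage sensor Cacna1s and the release channel Ryr1, by 0.38 to 2.53 on the log2 scale. Across all genes, 7.31% rose and 7.03% fell at the same threshold, an adjusted p under 0.05 in edgeR's quasi-likelihood test, or 14.3% in all. The members were chosen with earlier results of these data known, so their share beside all genes is a description. The median log2 fold change of the 10 members was 0.84, against -0.00 for all 13136 genes tested. In 8 of the 10 members every scKO library lay above every control in CPM, as did 24.3% of all genes in these 5 libraries; the other 2 were Atp2a1 and Atp2a2. From bulk RNA, more cells that express a gene and more RNA per cell cannot be told apart.

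**Figure D1:**
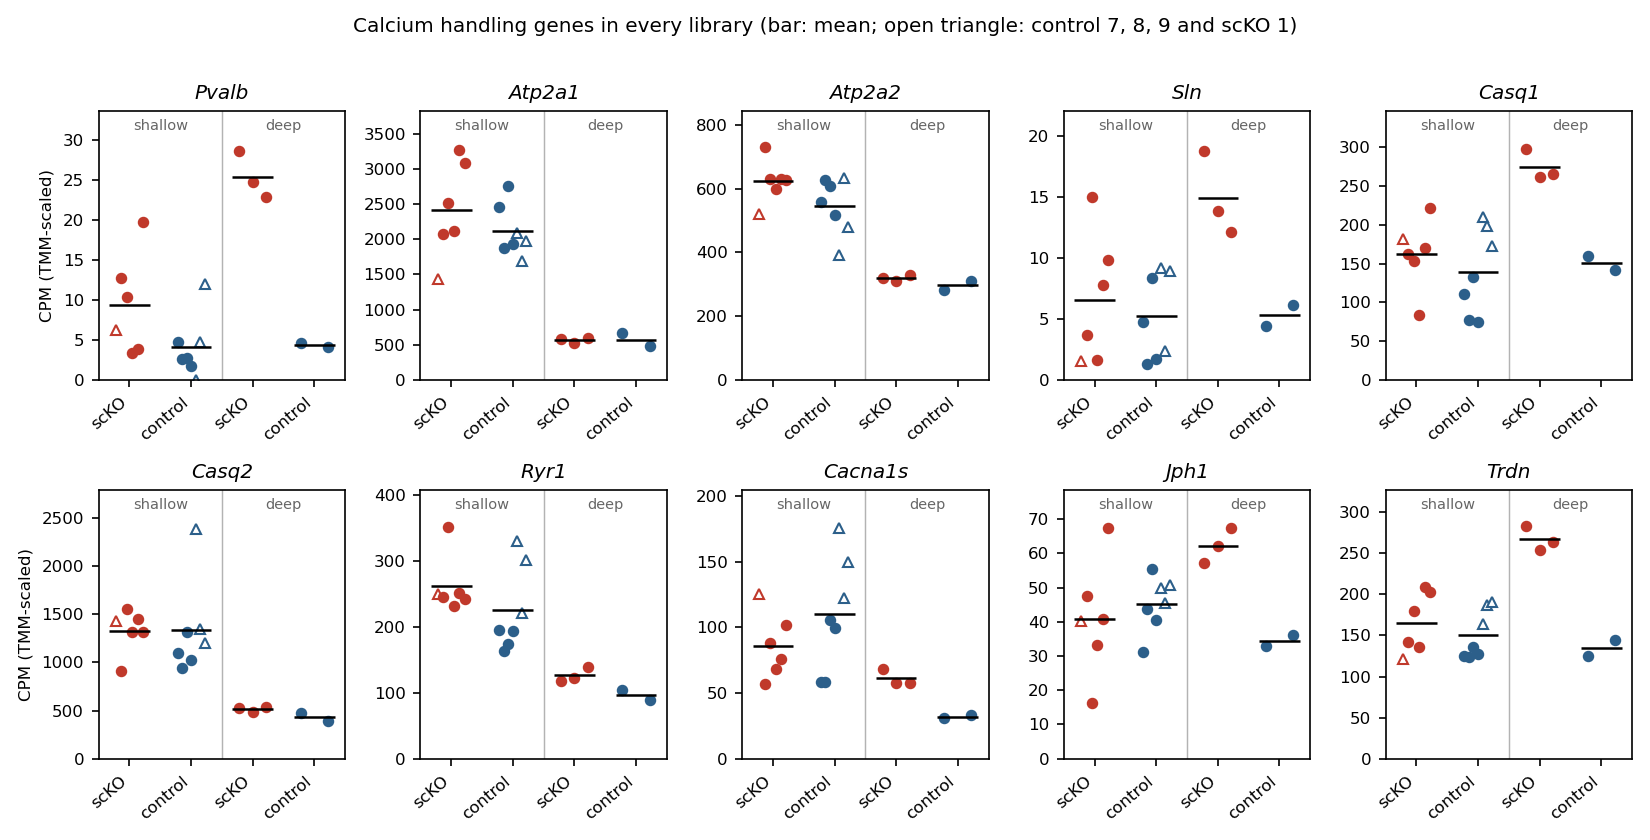
Level of each calcium handling gene in every library, in CPM, with scKO left of control within the deep and the shallow class; bars are means, and open triangles are control 7, 8 and 9 and scKO 1. In the deep class every scKO library lies above every control for 8 genes, all but Atp2a1 and Atp2a2, and in the shallow class all 10 genes overlap.

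Pvalb, the gene with the largest change among the members, had 202, 189 and 156 counts in scKO 6, 7 and 9, against 25 and 33 counts in control 1 and 2. All 3 scKO libraries were far above both controls. Levels were 25.4 ± 2.94 CPM in scKO (n = 3) and 4.38 ± 0.367 CPM in controls (n = 2), and the log2 fold change was 2.53 with an SE of 0.19 (edgeR, adjusted p = 3.17e-05). Pvalb lies at chr15:78191114-78206400 on the minus strand of GRCm38, and no exon of another gene overlaps its exons. Sln had 133, 106 and 83 counts in the deep scKO libraries, against 24 and 49 counts in the deep controls. The groups did not overlap, and its mean was 14.9 ± 3.47 CPM in scKO and 5.29 ± 1.18 CPM in controls (SD, n = 3 and 2). Its log2 fold change was 1.45 with an SE of 0.24 (edgeR, adjusted p = 0.00182).

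The junction and release genes moved by less than Pvalb and Sln, and Ryr1 by the least of the 7. Trdn had 284, 254 and 264 CPM in scKO 6, 7 and 9, against 125 and 145 CPM in control 1 and 2, a log2 fold change of 0.97 with an SE of 0.11 (edgeR, adjusted p = 0.000217). Jph1 had 57.1, 62.3 and 67.5 CPM in the scKO libraries, against 32.8 and 36.1 CPM in the controls, a log2 fold change of 0.83 with an SE of 0.12 (edgeR, adjusted p = 0.000744). Both scaffolds were higher in all 3 scKO libraries than in either control. Cacna1s had 68.0, 57.7 and 57.7 CPM in scKO, against 30.8 and 33.3 CPM in controls, and its log2 fold change was 0.91 with an SE of 0.12 (edgeR, adjusted p = 0.000497). Ryr1 had 118, 123 and 140 CPM in scKO, against 104 and 89.8 CPM in controls. Its groups also stood apart, but the gap from the lowest scKO library to the highest control was small, and the log2 fold change was 0.38 with an SE of 0.11 (edgeR, adjusted p = 0.0290). Ryr1 was no longer called when control 2 (adjusted p = 0.166), scKO 7 (0.0729) or scKO 9 (0.104) was left out of the edgeR fit.

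Of the stores and pumps, Casq1 passed the threshold on the counts as deposited, and Casq2, Atp2a2 and Atp2a1 did not. Casq1 had 298, 262 and 265 CPM in the deep scKO libraries, against 160 and 142 CPM in the deep controls, a log2 fold change of 0.85 with an SE of 0.11 (edgeR, adjusted p = 0.000388). Every scKO value lay above both controls. Casq2 had 3718, 3682 and 3655 counts in scKO, against 2582 and 3117 counts in controls, and its log2 fold change was 0.23 with an SE of 0.13 (edgeR, adjusted p = 0.252). Without control 1 it was 0.38 (adjusted p = 0.0191), and Casq2 was then called. Atp2a2 averaged 320 ± 10.6 CPM in scKO and 297 ± 18.6 CPM in controls, with a log2 fold change of 0.09 and an SE of 0.10 (edgeR, adjusted p = 0.615). Atp2a1 had a log2 fold change of -0.02 with an SE of 0.15 (edgeR, adjusted p = 0.936).

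Atp2a1 and Casq2 were counted close to the UMI limit in these libraries. Of the 4096 possible UMIs, Atp2a1 left 24, 56 and 25 unused in scKO 6, 7 and 9, against 504 and 280 unused in control 1 and 2. Casq2 left 378, 414 and 441 unused in the scKO libraries, against 1514 and 979 in the controls. When each count was converted to the number of molecules that would on average fill that many UMIs, Atp2a1 came to 21052, 17582 and 20885 in scKO, against 8582 and 10990 in controls. On counts corrected in this way the log2 fold change was 0.88 for Atp2a1 (SE 0.14, edgeR adjusted p = 0.00231) and 0.79 for Casq2 (SE 0.10, adjusted p = 0.000542). Both then rose, with Casq1 at 1.10, so that 9 of the 10 members were called higher, against 8.18% of all genes; Atp2a2 stayed at 0.15 (adjusted p = 0.415). The correction assumes that all UMIs of 6 bases are equally likely, and near the limit a few tags decide its size.

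**Figure D2:**
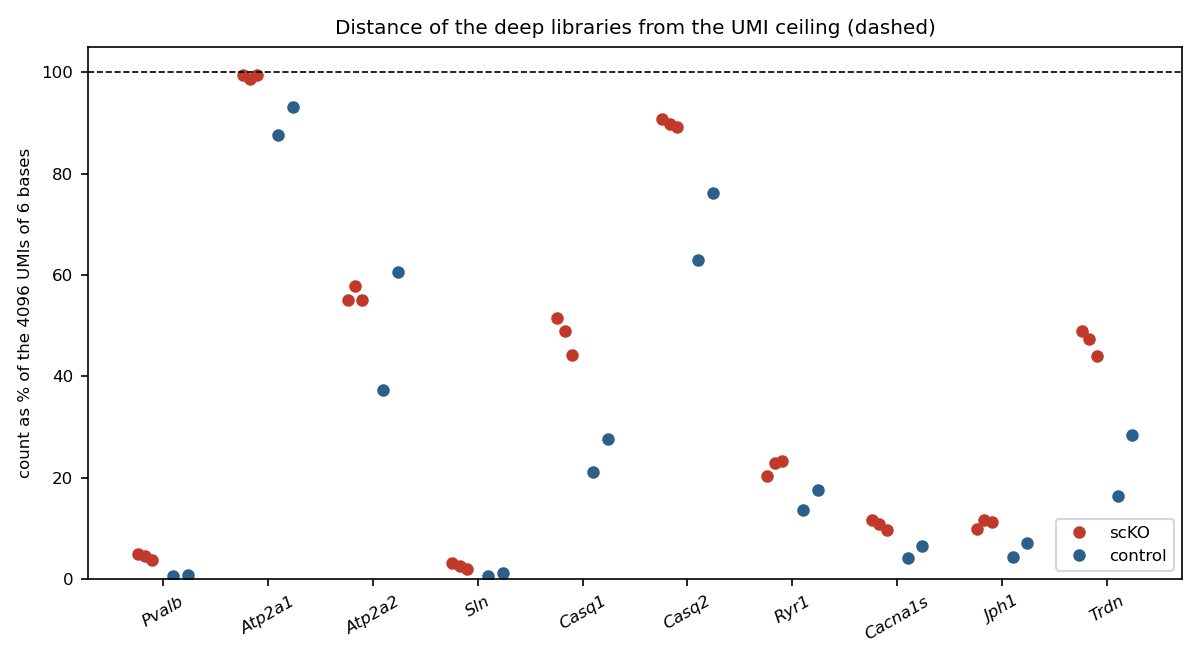
Counts of each member in the 5 deep libraries as a percentage of the 4096 UMIs of 6 bases, with the limit dashed and scKO left of control. Atp2a1 lies at the limit in scKO, where 24 to 56 UMIs were unused, while Pvalb and Sln lie near 0.

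In the shallow libraries no member passed the threshold. Of the 8 members with enough counts to be tested, 5 had positive and 3 had negative log2 fold changes, with a median of 0.16 against -0.02 for all 6906 genes. Across all genes, 0.0434% were called by edgeR in this class, 3 genes in all. None of the 8 members had an unadjusted p under 0.05, while 425 of all 6906 genes did, and DESeq2 called no member either. Groups overlapped for all 10 members, while 0.217% of genes had every scKO library above every control. The log2 fold changes were 0.22 (SE 0.26) for Casq1, 0.22 (SE 0.18) for Ryr1, 0.18 (SE 0.17) for Atp2a1, 0.18 (SE 0.14) for Atp2a2 and 0.13 (SE 0.18) for Trdn. They were -0.01 (SE 0.19) for Casq2, -0.17 (SE 0.25) for Jph1 and -0.33 (SE 0.26) for Cacna1s. Adjusted p in edgeR lay between 0.833 for Cacna1s and 0.993 for Casq2.

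Pvalb and Sln were too thinly counted for a test here. Pvalb had 36 counts over the 6 shallow scKO libraries, with 2 to 12 in each, against 15 counts over the 7 shallow controls, with 0 to 4 in each. Its level was 9.38 ± 6.27 CPM in scKO and 4.09 ± 3.85 CPM in controls, and the groups overlapped. A count of 3, taken as the floor, was worth 3.46 to 8.96 CPM in these libraries. Sln had 27 counts over the shallow scKO libraries, against 21 over the shallow controls. Without a count filter, the log2 fold change in the shallow class was 1.36 for Pvalb (SE 0.49, edgeR adjusted p = 0.523) and 0.47 for Sln (SE 0.49, adjusted p = 0.747).

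**Figure D3:**
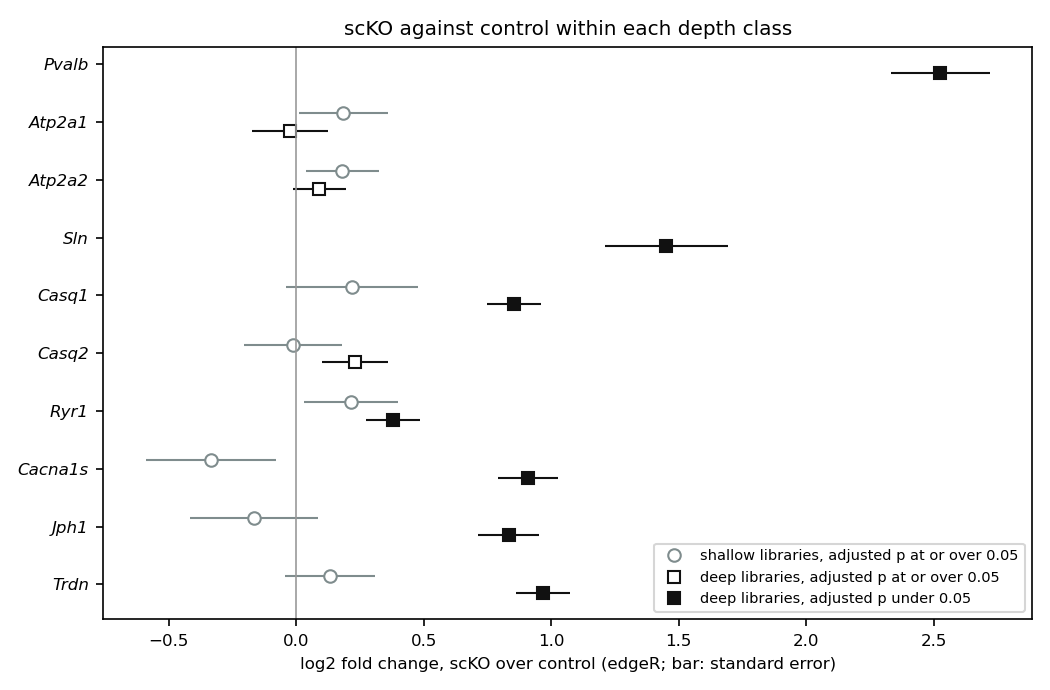
Log2 fold change of scKO over control for each member, fitted within the deep and within the shallow libraries, with standard errors; filled symbols have an adjusted p under 0.05. In the deep class 7 members are filled, from 0.38 for Ryr1 to 2.53 for Pvalb, in the shallow class none is, and Pvalb and Sln were not tested there.

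The 4 shallow libraries that stood apart touch these values. Controls 7, 8 and 9 averaged 149 CPM for Cacna1s, 194 CPM for Casq1 and 284 CPM for Ryr1, while the other 4 shallow controls averaged 80.4 ± 25.5, 98.8 ± 28.5 and 182 ± 15.8 CPM. The same 3 controls had 39626 to 41831 CPM summed over 25 contractile genes, against 21712 to 30098 CPM in the other shallow controls. Their part in the member values was not tested. With control 7, 8 and 9 and scKO 1 left out, Ryr1 lay between 231 and 351 CPM in all 5 scKO libraries, against 163 to 196 CPM in the 4 controls. Trdn lay between 136.4 and 209 CPM in scKO, against 123 to 136.0 CPM in controls. These were the members whose groups no longer overlapped, as for 1.35% of all genes. The log2 fold changes in the shallow class were then 0.67 for Casq1 (SE 0.23, edgeR adjusted p = 0.424), 0.54 for Ryr1 (SE 0.16, 0.268) and 0.44 for Trdn (SE 0.16, 0.466). These 3 had an unadjusted p under 0.05, but none of the 8 tested members was called, as 0% of 7077 genes were called higher.

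Over all 18 libraries, with the depth class as a covariate, all 8 tested members had positive log2 fold changes, although Cacna1s turned negative without control 1 or control 2 and, with Casq2, in the fit of the group alone. None passed the threshold. Their median was 0.21, against -0.01 for all 7662 genes, and 0.679% of genes were called. Casq1 (0.43, SE 0.20, edgeR adjusted p = 0.398) and Trdn (0.40, SE 0.15, adjusted p = 0.261) were the 2 members with an unadjusted p under 0.05, and DESeq2 called none. Of all 7662 genes, 910 had an unadjusted p under 0.05. Without control 7, 8 and 9 and scKO 1, 3 members were called higher, while 3.2% of genes were called higher. They were Trdn at 0.68 (SE 0.12, edgeR adjusted p = 0.00155), Casq1 at 0.76 (SE 0.16, 0.00529) and Ryr1 at 0.48 (SE 0.11, 0.00675). Without a count filter, which brings in Pvalb and Sln, those 2 were called over the 18 libraries, while 0.678% of genes were called higher. Pvalb was at 2.20 (SE 0.26, edgeR adjusted p = 1.37e-13) and Sln at 1.15 (SE 0.26, adjusted p = 0.00219). Most of their counts came from the deep libraries, so these 2 calls do not stand apart from the deep result. Pvalb had 547 scKO and 58 control counts in the deep class, against 36 and 15 in the shallow class. For Sln these were 322 and 73, against 27 and 21.

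Whether the change differed between the depth classes was tested as an interaction. The log2 fold change in deep libraries exceeded that in shallow libraries by 1.24 for Cacna1s (SE 0.41, edgeR adjusted p = 0.560), by 1.01 for Jph1 (SE 0.36, adjusted p = 0.570) and by 0.84 for Trdn (SE 0.29, adjusted p = 0.560). None of the 8 tested members passed, and 0% of 7662 genes did; these 3 members, and 473 genes in all, had an unadjusted p under 0.05. The deep and shallow results are thus not shown to differ for any member.

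Neighbouring genes of the release machinery also rose in the deep scKO libraries. Their list, like the members, was chosen with earlier results of these data known, so its share beside all genes is a description. Of 20 tested partners of the junction and the release channel, 12 rose and none fell, against 7.31% of all genes that rose, with a median log2 fold change of 0.41. They included Cacna2d1, a subunit of the voltage sensor complex (0.59, edgeR adjusted p = 0.00122), Hrc, a calcium-binding protein of the reticulum lumen (0.60, 0.00168), Tmem38a, a potassium channel of the reticulum (0.60, 0.00219), and Stac3, which links voltage sensor and release channel (0.44, 0.0114). The SERCA inhibitors Mrln (0.75, edgeR adjusted p = 0.00196) and Pln (1.66, SE 0.45, 0.0262) rose, as Sln did. Tmem38b (0.50), Srl (0.46), Jsrp1 (0.40), Cacnb1 (0.36), Asph (0.32) and S100a1 (0.32) completed the 12. The highest count among the partners was 3999 to 4023 in deep scKO libraries, against 3963 and 4044 in deep controls, near the UMI limit. In the shallow libraries edgeR called 0 of the 16 tested partners, with 10 positive and 6 negative log2 fold changes. In the fit of all 18 libraries it also called 0 of 16. An unadjusted p under 0.05 was found for 4 partners in the shallow fit, and for 425 of all 6906 genes. In the fit of all 18 libraries it was found for 5 partners, and for 910 of all 7662 genes.

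In the other calcium routes 0 to 4 genes per list rose in the deep libraries. For the lists of 10 or 11 genes, 1 gene is close to the 7.31% of all genes that rose or the 7.03% that fell. Of 11 store-operated entry and IP3 receptor genes tested in the deep libraries, 1 rose, the reticulum calcium sensor Stim1 (0.81, SE 0.09, edgeR adjusted p = 0.000259), and the list's median was -0.13. Of 5 plasma membrane pumps and exchangers, 1 rose, the sodium-calcium exchanger Slc8a3 (1.33, SE 0.32, adjusted p = 0.0146). Of 10 genes of mitochondrial calcium uptake, 1 rose, the uniporter pore Mcu (0.47, SE 0.09, adjusted p = 0.00393). Of 19 genes of calmodulin, calcineurin and CaM kinases, 4 rose, a larger share than the 7.31% of all genes. They were the kinase subunits Camk2a (1.03), Camk2b (0.75) and Camk2d (0.35) and the calcineurin subunit Ppp3r1 (0.44). An unadjusted p under 0.05 in edgeR was found for 10 of the 19, and for 3863 of all 13136 genes. Of 10 general buffers and chaperones of the endoplasmic reticulum, none rose and 1 fell, the disulfide isomerase Pdia4 (-0.55, SE 0.14, adjusted p = 0.0197). None of these genes was called in the shallow libraries or in the fit of all 18.

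**Figure D4:**
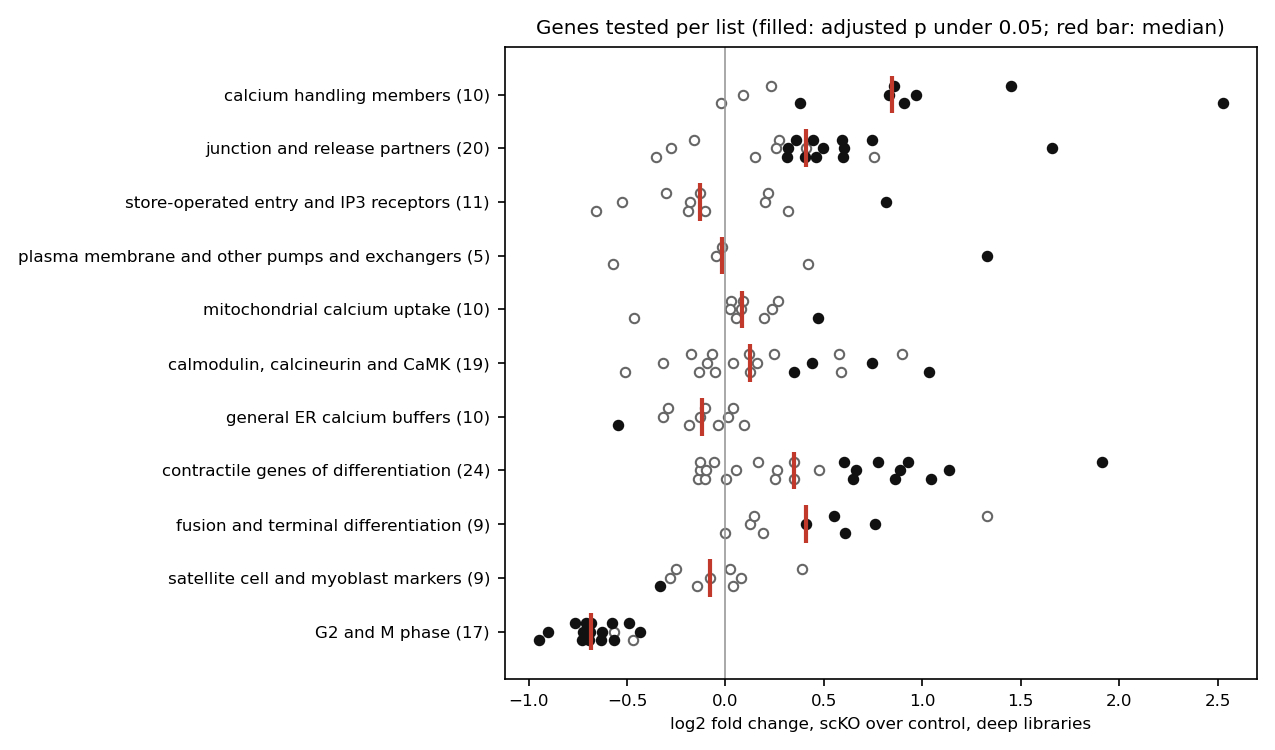
Log2 fold change of scKO over control in the deep libraries for each tested gene of the calcium handling set and of 10 further lists, with list medians in red and filled symbols for an adjusted p under 0.05. The medians are 0.84 for the calcium handling members, 0.41 for junction and release partners, 0.35 for contractile genes and -0.68 for G2 and M phase genes.

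Contractile, fusion and cell cycle genes moved beside the members in the deep libraries. These lists too were chosen with earlier results of these data known, so their shares are descriptions. In the deep libraries 10 of 24 tested contractile genes rose, where 7.31% of all genes did, with a median of 0.35, among them the fast myosin Myh4 (1.91, SE 0.22, edgeR adjusted p = 0.00127) and the M-band protein Myom2 (0.93, SE 0.09, 0.000158). The highest count of the contractile list was 4092 to 4093 in deep scKO libraries, against 3988 and 4061 in deep controls, near the UMI limit. List values are on counts as deposited, and the part of the limit in them was not tested. Of 9 genes of fusion and terminal differentiation 4 rose, led by the fusion peptide Mymx (0.76, SE 0.11, adjusted p = 0.000974), with Dysf (0.61), Cav3 (0.55) and Mef2c (0.41). Of 17 genes of the G2 and M phases 15 fell, where 7.03% of all genes did, with a median of -0.68, among them the kinase Aurka (-0.95, SE 0.11, adjusted p = 0.000217). Of 9 satellite cell and myoblast markers 1 fell, Myf5 (-0.33, SE 0.10, adjusted p = 0.0350). In the shallow libraries edgeR called no gene of these lists; contractile genes had a median of -0.02 there, with 10 positive and 13 negative, and 14 of 15 tested G2 and M genes were negative. At an unadjusted p under 0.05 there were 3 contractile, 2 fusion, 1 satellite cell and 8 G2 and M genes in that class. Of all 6906 genes tested there, 425 had such a p. In the fit of all 18 libraries, where 0 of 8 members were called, 3 contractile genes rose (Myh4, Myom2 and Cmya5) and 5 G2 and M genes fell (Kif11, Anln, Cenpe, Cdc20 and Smc4). Summed G2 and M levels were 1406 to 1526 CPM in deep scKO libraries, against 2086 and 2300 CPM in deep controls, and 1411 to 2194 CPM in shallow scKO libraries, against 1916 to 2683 CPM in shallow controls; their part in the member values was not tested.

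Of 7 genes listed as cardiac muscle markers, 5 (Myh6, Myl7, Nppa, Nppb and Tnni3) had at most 4 counts in any library, while Tnnt2 and Myl4, which developing skeletal muscle also expresses, were abundant. Summed over the 7 genes, levels were 1058 to 1184 CPM in deep scKO libraries, against 964 and 1403 CPM in deep controls, and 7159 to 10465 CPM in shallow scKO libraries, against 6875 to 10958 CPM in shallow controls. Tnnt2 alone had 3275 to 4096 counts per library, up to the UMI limit in both classes. Summed over 6 Schwann cell genes, levels were 37.9 to 57.7 CPM in deep scKO libraries, against 20.4 and 29.3 CPM in deep controls, and 16.4 to 90.5 CPM in shallow scKO libraries, against 38.4 to 158 CPM in shallow controls. Of 5 genes of this list tested in the deep libraries, 2 rose, Sox10 and Cdh19, where 7.31% of all genes did. The list's median log2 fold change was 1.96 there. In the shallow libraries 1 gene was tested, at -1.35, and it was not called. The part of such cells in the member values was not tested. The smooth muscle myosin Myh11 also rose there (1.61, SE 0.40, edgeR adjusted p = 0.0166), while the summed smooth muscle and pericyte markers were 247 to 254 CPM in scKO, against 243 and 280 CPM in controls. In shallow libraries this list summed to 326 to 433 CPM in scKO, against 250 to 357 CPM in controls. Without control 7, 8 and 9 and scKO 1 it summed to 366 to 433 CPM in scKO, against 250 to 342 CPM in controls, with no overlap; none of its 3 tested genes was called in the fit of the 13 shallow libraries, and its part in the member values was not tested. Leukocyte, endothelial and fibro-adipogenic sums were at most 16.5, 65.7 and 122 CPM in any library. No endothelial, leukocyte, fibro-adipogenic or cardiac marker was called.

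Members varied together only in part. Over the 18 libraries, with each depth class centred on its own mean, the log2 CPM of Casq1 and Trdn had a Pearson correlation of 0.73, the highest pair, and Atp2a2 and Cacna1s had -0.55, the lowest. Of all other tested genes, the levels most like the summed level of the members were those of Klhl41 (0.91), a sarcomere-associated protein, Pgam2 (0.86), the muscle phosphoglycerate mutase, Fhod3 (0.85), an actin-organising formin, Speg (0.85), a striated muscle kinase, and Smim19 (0.85). In shallow libraries most of that sum is Atp2a1 and Casq2. There the 10 members summed to 4110 to 6115 CPM in scKO, against 3918 to 5821 CPM in controls. Without both genes they summed to 1158 to 1492 CPM in scKO, against 1058 to 1414 CPM in controls. Which members the likeness follows was not tested. All these correlations share the same 18 libraries, their scaling and the UMI limit, and they are descriptions. Strand use in the counting is not given in the sources used here, so reads of Casq1, Ryr1, Cacna1s and Jph1 cannot be told apart from those of the antisense genes that overlap their exons, nor those of Atp2a1 from its overlapping neighbour Rabep2 or those of Atp2a2 from Gm43361 on the opposite strand.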

How the data were processed

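RNA sequencing libraries of 9 scKO and 9 control samples were compared. The deposited table holds raw UMI counts per mouse Ensembl gene, 1 column per library; per the submitters' processing notes, HISAT2 and HTSeq were used, and these notes name the build Rnor_6.0 although the identifiers are mouse genes. The annotation release, library kit, UMI length and strand setting are not given in the sources used here. Symbols and gene models came from GENCODE M21 (GRCm38). There were 313 features without a symbol, which held 0.0410% of counts. They stayed in the library totals and, where they passed the count filter, in the tests.

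Totals ranged from 420197 to 5986128 counts. Genes were filtered with filterByExpr, scaled by TMM and tested with edgeR 4.0.16 (R 4.3.3; quasi-likelihood, robust), with Benjamini-Hochberg adjustment over all genes tested and a threshold of 0.05. Fits used all 18 libraries with depth class as covariate, each class alone, and an interaction. CPM uses TMM-scaled totals of the genes that passed the filter. Alternatives were RLE size factors, no filter, a filter of 10 counts, correction for UMI collisions, DESeq2 1.42.0, limma-voom 3.58.1, the group alone, a replicate block, and left-out libraries. No 2 replicates agreed within sampling noise. Scripts were tested on simulated data.

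The members and gene lists were chosen with earlier results of these data known. Genes named beyond the members were those of each list past the threshold, or examples of them, Hoxa10 as a check of the labels, and the 5 genes most like the summed members.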

Additional observations from a re-analysis of the deposited data

Results flagged for a closer look

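Of 20 groups of 6 or 7 libraries tested (10 members, shallow scKO and shallow control), 3 held a library far from the others by Dixon's criterion, which flags about 1 group in 20 by chance. Ryr1 was 351 CPM in scKO 3, while the nearest of the other shallow scKO libraries had 252 CPM. Pvalb was 11.95 CPM in control 9, from 4 counts, while the nearest shallow control had 4.78 CPM. Casq2 was 2393 CPM in control 7, while the nearest shallow control had 1347 CPM. Control 7 and control 9 were among the libraries that stood apart in the shallow class.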

How the results depend on the processing

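In the deep libraries Pvalb, Sln, Trdn, Cacna1s, Casq1 and Jph1 were called higher under all 10 alternatives. The number of members called was 7 with RLE size factors, no filter, the stricter filter and DESeq2, 9 after collision correction, and 6 to 8 with 1 library left out. Genes called in the deep class numbered 996 to 1810 with 1 library left out, the lowest without scKO 7. Atp2a1 reversed to 0.88 after collision correction, and with 1 library left out ranged from -0.25 to 0.23 on the log2 scale, positive without control 1 or scKO 7. In the shallow class, genes called numbered 13 with no filter, 6 with DESeq2, 0 without control 7, 8 and 9 and scKO 1 (edgeR), and 1 to 5 with 1 library left out; members called stayed at 0. Over all 18 libraries, genes called numbered 359 with no filter, 22 with the stricter filter, 390 with DESeq2, 101 with limma-voom, 1 with the group alone and 617 without control 7, 8 and 9 and scKO 1; with 1 library left out they ranged from 11 (without control 1) to 216 (without scKO 1). Members called there were 2 with no filter, 3 without the 4 libraries and 0 otherwise. With the group alone Casq2 reversed to -0.10 and Cacna1s to -0.22; Cacna1s ranged from -0.068 to 0.22 with 1 library left out, negative without control 1 or control 2. The interaction called 30 genes with no filter, no member among them. The cause of these shifts was not tested. Replicate numbers were shared by the groups, but the deviations of same-numbered libraries correlated at -0.07 to 0.26, over 0.1 in 4 of 9 pairs, and 5 of 18 libraries correlated best with their own number; with replicate number as a block, 14 genes were called over all libraries and 3 in the shallow class, with 0 members. The deep libraries share no number. Pvalb and Sln had too few counts for a test in the shallow class. If the inferred UMI limit holds, Atp2a1 and Casq2 were the members nearest to it in the deep class. Casq1, Trdn and Atp2a2 filled on average 48.2%, 46.8% and 56.0% of the UMIs in deep scKO libraries. In deep controls they filled 24.4%, 22.4% and 49.0%. In the shallow class Atp2a1 filled on average 37.0% in scKO and 31.8% in controls.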
